A study of Homo sapiens with 4 samples.

Results

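The mitochondrial ribosomal protein genes were examined in poly-A RNA sequencing of SKBR3, a line derived from a HER2-positive breast cancer. Members were taken by symbol alone, as every row of the counts table named MRPL or MRPS with a number and at most 1 further letter, which left out the pseudogene rows. This gave 78 of 56271 rows, 49 with an MRPL symbol and 29 with an MRPS symbol. The study asked how raising VIRMA, a scaffold subunit of the complex that writes N6-methyladenosine on RNA, changes the transcripts of these cells. The eGFP control group (n = 2 libraries) carried a lentiviral FUW vector expressing eGFP, and the VIRMA-overexpressing group (n = 2 libraries) carried the same vector with HA-tagged full-length VIRMA joined to eGFP through a p2A peptide. All cells were sorted for eGFP after transduction and expanded, so each group was a pool of transduced cells and not a clone. The study calls the libraries biological duplicates. Whether the 2 libraries of a group came from separate transductions is not stated. If they did not, an effect of VIRMA and a difference between the 2 pools cannot be told apart. The labels mention a hypoxia chamber for every sample alike, whereas the paper describes standard culture for this experiment, so the oxygen level is uncertain.

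Mitochondria keep their own ribosome, which translates the few proteins encoded by mitochondrial DNA, all of them subunits of the respiratory chain or of ATP synthase. Its ribosomal RNAs are made inside the organelle, whereas every one of its proteins is encoded in the nucleus, made in the cytosol and imported. The large subunit joins amino acids at the peptidyl transferase centre, and the small subunit holds the messenger RNA and reads its codons. Some of the proteins descend from bacterial ribosomal proteins and the others were added in the mitochondrial lineage. Symbols beginning MRPL were given to large subunit proteins and MRPS to small subunit proteins, with a few later exceptions.

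The libraries held 81446932 to 86375474 counts, and transcripts of mitochondrial DNA took 11.4% to 12.8% of them. VIRMA, listed under its older symbol KIAA1429, was at 8.54 and 8.15 CPM (the count scaled to library size with the TMM factors of edgeR) in the control libraries and at 40.1 and 41.4 CPM in the VIRMA-overexpressing libraries. Its transcripts were therefore 4.89-fold higher (log2 fold change 2.29 ± 0.07 SE, adjusted p = 9.74e-26, edgeR quasi-likelihood test), as the labels state. ERBB2, the amplified receptor gene that defines the line, lay between 6933 and 7098 CPM in all 4 libraries. The keratin gene KRT19 lay between 6058 and 6673 CPM, and the epithelial marker CDH1 was near 0, at 0.0597 to 0.395 CPM. Among the 7 tested markers of a HER2-positive breast cancer line, 3 fell and 3 rose in edgeR at an adjusted p below 0.05. The extremes were KRT8 (-29.8%, adjusted p = 1.7e-22) and GRB7 (34.6%, adjusted p = 1.11e-16), and EPCAM changed by -23.9%. The 7 erythroid markers summed to 28.0 and 20.3 CPM in the controls, nearly all of it HBB, and to 0.479 and 0.323 CPM with VIRMA, and all 7 were higher in both controls. The 5 leukocyte markers summed to 1.90 to 4.04 CPM and the 4 fibroblast markers to 8.43 to 13.8 CPM, with 4 and 3 of them higher in both controls. HBB, HBD, AHSP and SLC4A1 were at 0 in both VIRMA-overexpressing libraries, and the part of these markers in the results below was not tested.

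Transcripts of the mitochondrial ribosomal proteins were mostly less abundant with VIRMA overexpression. Summed over the 78 members they came to 5998 and 5984 CPM in the control libraries and to 4654 and 4701 CPM in the VIRMA-overexpressing libraries, so that the mean fell from 5991 ± 10.2 to 4677 ± 33.0 CPM (SD, n = 2 each), a difference of -21.9%. The 2 groups did not overlap, and the spread within each was small beside the gap between them. In bulk RNA, fewer cells of a type and less RNA per cell cannot be told apart. Of the members, 77 passed the filter for low values (RPKM, which is CPM per kilobase of exonic length, above 1 in at least 2 libraries) and were tested.

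Of the 77 tested members, 57 fell and 2 rose at an adjusted p below 0.05, and 18 did not pass. Over all 12205 tested genes, 35.9% fell and 35.1% rose by the same rule, against 74.0% and 2.60% of the members. The median log2 fold change of the members was -0.29, with quartiles of -0.54 and -0.13, beside 0.01 over all tested genes. In 66 members both VIRMA-overexpressing libraries lay below both controls, and in 3 they lay above, which is 85.7% and 3.90% of the members beside 41.6% and 42.7% of all tested genes. The other 8 members had overlapping groups. These counts describe the list, and no test compared it with other genes.

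The changes were moderate in size. With the second criterion of the study, a change of more than 2-fold, 1 member fell, MRPL36, which is 1.30% of the members beside 2.93% of all tested genes. With that criterion 0 members rose in edgeR and 0 in DESeq2, beside 4.52% of all tested genes in edgeR, and 2 members were higher at an unadjusted p below 0.05. A decrease of more than 30% was found in 22 members and an increase of that size in 0. The share of all tested genes past this mark was not counted. Their log2 fold changes had quartiles of -0.31 and 0.36, beside -0.54 and -0.13 in the members. The plot of log2 fold changes by member places MRPL36 at -1.04 below the next member, MRPL16 at -0.88, and MRPS10 at 0.30 above the next, MRPL2 at 0.10.

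**Figure D1:**
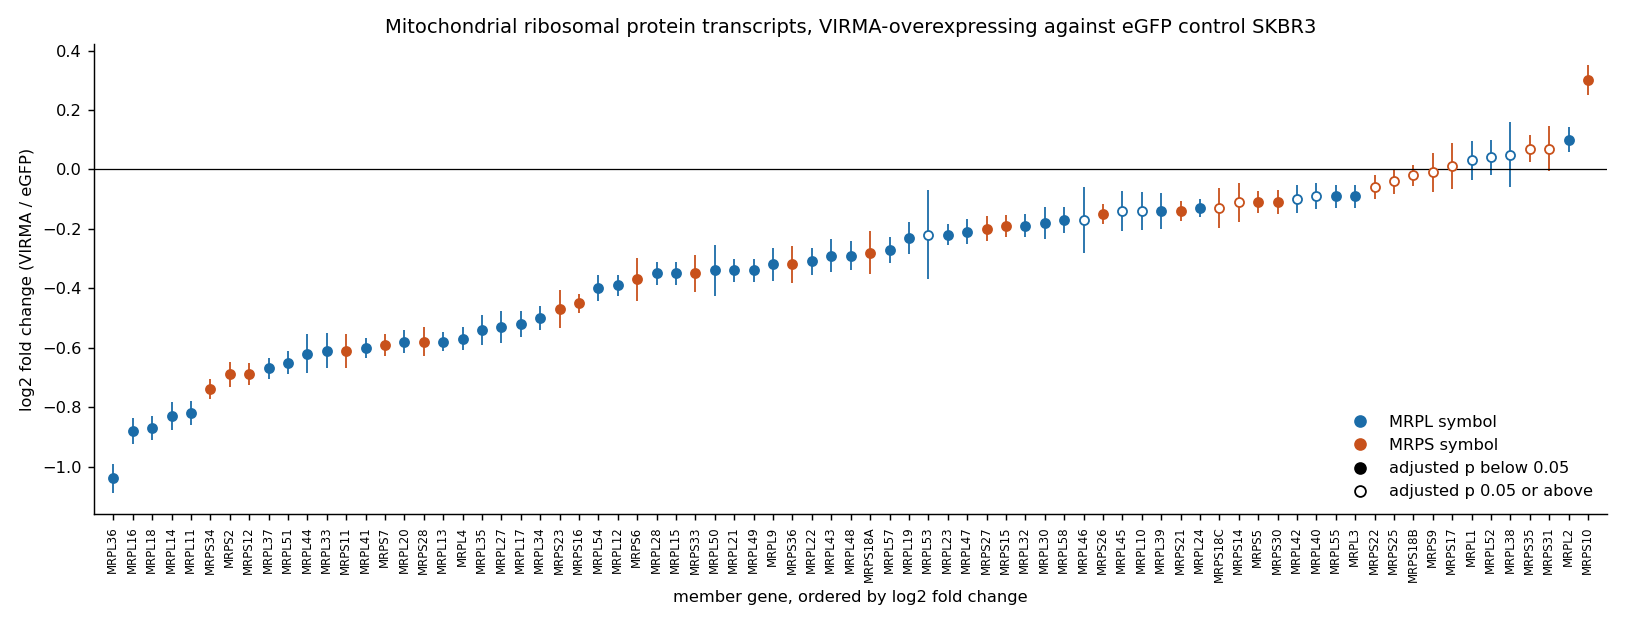
Log2 fold change of each of the 77 tested members (VIRMA-overexpressing against eGFP control; y axis) with its standard error, ordered from lowest to highest on the x axis, with MRPL symbols in blue and MRPS symbols in orange, filled where the adjusted p was below 0.05. The values run from -1.04 for MRPL36 to 0.30 for MRPS10, and 69 of the 77 lie below 0.

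Promoter sequences were taken from RefSeq (GRCh38.p14) and are shown for the member that fell most (MRPL36), the next (MRPL16), the MRPS member that fell most (MRPS34) and the member that rose most (MRPS10). Each stretch runs 5′ to 3′ on the gene's own strand from 150 bases before to 30 bases from the annotated start. All 4 genes lie on the minus strand, at chr5:1799808-1799987 for MRPL36, chr11:59810749-59810928 for MRPL16, chr16:1773105-1773284 for MRPS34 and chr6:42217832-42218011 for MRPS10. Capitals mark matches, on either strand, to the ETS/GABP motif CCGGAAG, the NRF1 motif GCATGCGC, the YY1 motif AAGATGGCG and the E-box CACGTG bound by MYC and related factors, all known from promoters of genes for mitochondrial proteins.
MRPL36: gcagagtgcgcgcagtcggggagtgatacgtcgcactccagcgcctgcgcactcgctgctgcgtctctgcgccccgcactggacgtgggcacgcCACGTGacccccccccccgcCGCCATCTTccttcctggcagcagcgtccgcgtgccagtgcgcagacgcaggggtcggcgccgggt
MRPL16: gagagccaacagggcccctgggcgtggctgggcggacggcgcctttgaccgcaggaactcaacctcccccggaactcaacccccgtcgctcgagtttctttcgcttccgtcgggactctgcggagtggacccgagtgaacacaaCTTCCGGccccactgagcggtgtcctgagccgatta
MRPS34: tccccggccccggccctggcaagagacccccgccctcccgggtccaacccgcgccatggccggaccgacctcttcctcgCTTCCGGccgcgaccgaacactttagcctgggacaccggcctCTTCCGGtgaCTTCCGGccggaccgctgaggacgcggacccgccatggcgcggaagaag
MRPS10: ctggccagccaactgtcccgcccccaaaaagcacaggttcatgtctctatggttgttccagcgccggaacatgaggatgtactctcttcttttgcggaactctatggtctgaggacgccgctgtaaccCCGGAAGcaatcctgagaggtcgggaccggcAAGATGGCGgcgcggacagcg

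MRPS34 carried 3 ETS matches in this stretch and MRPL16 carried 1, MRPL36 carried an E-box beside a YY1 match, and MRPS10, which rose, carried an ETS and a YY1 match. A promoter window of 250 bases before to 50 after the start was found for 70 members, 1 of them (MRPS36) under its current symbol KGD4. MRPL2, MRPL10, MRPL13, MRPL15, MRPL21, MRPL23, MRPL35 and MRPS28 had no entry. The ETS motif was present in 29 of the 70 windows (41.4%), the YY1 motif in 13 (18.6%), the E-box in 7 (10%) and the NRF1 motif in 6 (8.57%). Among 27305 windows of the same length, 1 for each gene in the table, the shares were 10.7%, 1.85%, 7.43% and 3.27%, and among the 8422 of them that belonged to tested genes 21.3%, 4.45%, 10.7% and 5.96%. An ETS match may share its last letters with the start of a YY1 match.

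The matches were also counted by the members' change. ETS matches stood in 21 of the 51 windows of members that fell (41.2%) and in 8 of the other 19 (42.1%). YY1 matches stood in 6 of 51 (11.8%) and 7 of 19 (36.8%). The other 19 include MRPS24, which was below the filter and not tested, and its window is among the 7 with a YY1 match. The median log2 fold change was -0.14 over the 12 tested members with a YY1 match and -0.32 over the 57 without, and -0.28 and -0.29 with and without an ETS match. These are descriptions of letters in a window, with no test, and a match is not evidence of binding.

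The large subunit members held the lowest values. Of the 49 MRPL members, all of them tested, 39 fell, 1 rose and 9 did not pass, with a median of -0.32. MRPL36, a very small protein with a bacterial counterpart, was at 64.4 and 67.2 CPM in the controls and at 31.0 and 32.9 CPM with VIRMA. The VIRMA-overexpressing libraries were close to each other and well below the controls, and the transcript fell by 51.4% (log2 fold change -1.04 ± 0.05, adjusted p = 2.86e-20). The gene lies on chromosome 5 from 1798386 to 1801366 (GRCh38, minus strand), its canonical transcript has 2 exons and encodes 103 residues, and no exon of another row overlaps it. Its estimate stood within 1 standard error of the 2-fold mark, and 0 members were past that mark in edgeR without VIRMA-overexpressing replicate 1 or with library totals alone as the scaling (-0.96 for MRPL36).

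The next 4 large subunit members all have bacterial counterparts. MRPL16, whose bacterial relative lies close to the peptidyl transferase centre, was at 72.3 and 72.8 CPM in the controls and at 39.1 and 39.6 CPM with VIRMA (log2 fold change -0.88 ± 0.04, adjusted p = 2.48e-19). MRPL18, related to a bacterial protein that binds the ribosome's smallest RNA, was at 107 and 113 CPM and at 58.3 and 62.4 CPM (-0.87 ± 0.04, adjusted p = 5.79e-20). In both genes the control pair and the VIRMA pair were far apart and tightly grouped. MRPL14, a protein of the face that meets the small subunit, was at 64.5 and 64.0 CPM and at 34.7 and 37.4 CPM (-0.83 ± 0.05, adjusted p = 1.16e-17). MRPL11, of the stalk base where translation GTPases dock, was at 92.3 and 94.9 CPM and at 52.8 and 53.1 CPM (-0.82 ± 0.04, adjusted p = 1.51e-19). Their changes lay between -45.7% and -43.4%.

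At the other end of the called large subunit members stood 5 with changes under 10%. MRPL39, a mitochondria-specific protein, was at 28.0 and 29.6 CPM in the controls and at 25.2 and 27.1 CPM with VIRMA (log2 fold change -0.14 ± 0.06, adjusted p = 0.0433). MRPL24, whose relatives sit at the protein exit tunnel, was at 250 and 246 CPM and at 230 and 222 CPM (-0.13 ± 0.03, adjusted p = 0.000317). The groups of both genes were close together without overlapping. MRPL55, with a bacterial counterpart, was at 82.8 and 84.1 CPM and at 76.5 and 80.2 CPM (-0.09 ± 0.04, adjusted p = 0.0349). MRPL3, a core protein of the large subunit, was at 86.4 and 86.3 CPM and at 82.5 and 79.6 CPM (-0.09 ± 0.04, adjusted p = 0.0329). The calls of these 4 were lost with library totals alone and with upper-quartile factors as the scaling. With library totals alone MRPL3 and MRPL55 were both at -0.01 and MRPL24 at -0.05. In DESeq2 the calls of MRPL39 (adjusted p = 0.0784), MRPL55 (0.0588) and MRPL3 (0.0512) were lost. MRPL39 did not pass without eGFP control replicate 2 (adjusted p = 0.25) or VIRMA-overexpressing replicate 1 (0.303), nor did MRPL55 (0.127 and 0.295). MRPL3 did not pass without eGFP control replicate 1 (adjusted p = 0.0677), eGFP control replicate 2 (0.0758) or VIRMA-overexpressing replicate 2 (0.228).

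MRPL2, related to a bacterial protein next to the peptidyl transferase centre, was the 1 large subunit member that rose. It was at 66.1 and 63.2 CPM in the controls and at 68.8 and 70.1 CPM with VIRMA, an increase of 7.42% (log2 fold change 0.10 ± 0.04, adjusted p = 0.0247). The highest control and the lowest VIRMA-overexpressing library differed by less than the 2 controls did. The call was lost in DESeq2 (adjusted p = 0.0697), and in edgeR with filterByExpr (0.06, adjusted p = 0.255) and with no filter (0.07, adjusted p = 0.302). It was also lost without eGFP control replicate 2 (log2 fold change 0.07) or VIRMA-overexpressing replicate 2 (0.09). The 9 large subunit members that did not pass were MRPL1, MRPL10, MRPL38, MRPL40, MRPL42, MRPL45, MRPL46, MRPL52 and MRPL53, with log2 fold changes from -0.22 (MRPL53) to 0.05 (MRPL38). MRPL45 and MRPL10 missed narrowly, at adjusted p = 0.0502 and 0.0504.

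**Figure D2:**
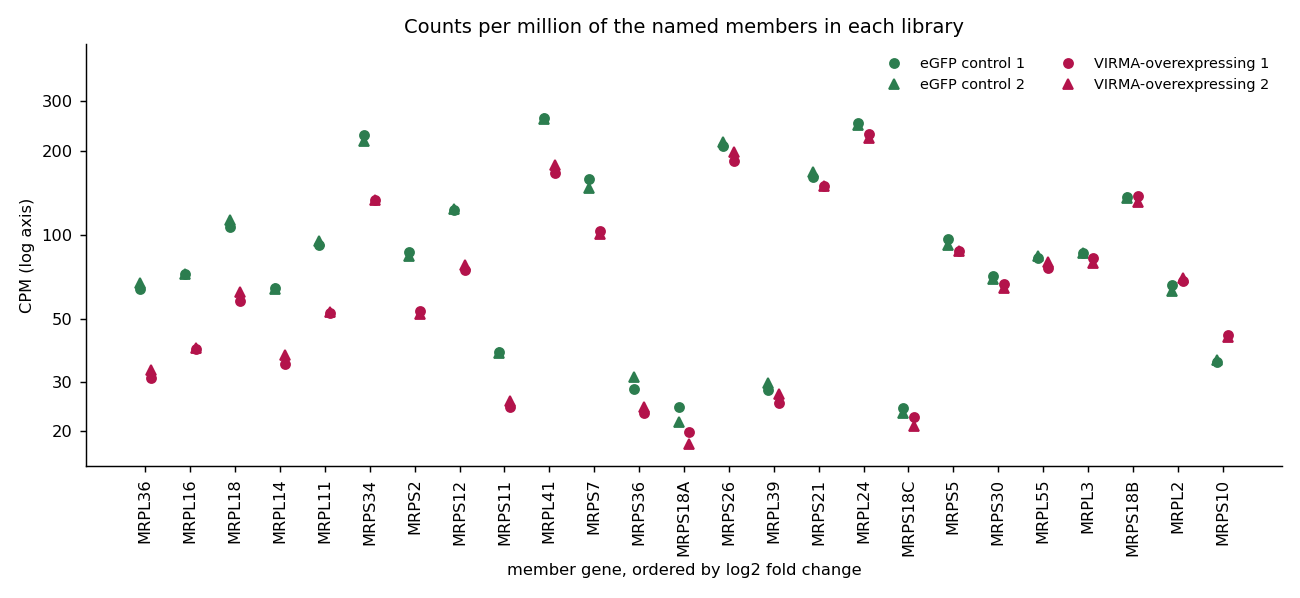
CPM (log axis) of the named members with a tested value in each of the 4 libraries, ordered by log2 fold change on the x axis, with circles for replicate 1 and triangles for replicate 2, eGFP control in green and VIRMA-overexpressing in red. The pairs are widely separated on the left, as for MRPL36 at 64.4 and 67.2 against 31.0 and 32.9 CPM, and change places on the right, as for MRPS10 at 35.1 and 35.8 against 44.1 and 43.4 CPM.

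Transcripts with MRPS symbols were also mostly lower. Of the 28 tested MRPS members, 18 fell, 1 rose and 9 did not pass, with a median of -0.17, and the difference from the MRPL members was not tested. MRPS34, a mitochondria-specific protein of the small subunit, was at 227 and 217 CPM in the controls and at 133 and 133 CPM with VIRMA (log2 fold change -0.74 ± 0.03, adjusted p = 1.20e-20). It was also the third most abundant member per length. Its gene lies on chromosome 16 from 1771890 to 1773155 (minus strand) with 3 exons in the canonical transcript.

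The 4 small subunit members after it all descend from bacterial proteins. MRPS2 was at 86.8 and 83.9 CPM in the controls and at 53.4 and 52.3 CPM with VIRMA (log2 fold change -0.69 ± 0.04, adjusted p = 3.69e-17). MRPS12, a protein of the decoding site where codon and anticodon are matched, was at 123 and 124 CPM and at 74.9 and 78.3 CPM (-0.69 ± 0.04, adjusted p = 2.79e-18). In neither did any VIRMA-overexpressing library come near a control. MRPS11, of the platform of the small subunit, was at 38.2 and 37.9 CPM and at 24.4 and 25.5 CPM (-0.61 ± 0.06, adjusted p = 1.09e-11). MRPS7, of its head, was at 159 and 147 CPM and at 103 and 101 CPM (-0.59 ± 0.04, adjusted p = 2.46e-16). Their changes ran from -38.1% to -33.5%.

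MRPS10 rose most of all members. This small subunit protein, whose bacterial relative is found in the head, was at 35.1 and 35.8 CPM in the controls and at 44.1 and 43.4 CPM with VIRMA. Both VIRMA-overexpressing libraries were above both controls, an increase of 23.4% (log2 fold change 0.30 ± 0.05, adjusted p = 1.84e-06). It rose in edgeR and in DESeq2, under every scaling and filter tried and without each library in turn. The gene lies on chromosome 6 from 42206801 to 42217865 (minus strand), and no exon of another row overlaps it.

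The other called MRPS members at this end, MRPS30 among them, had changes from -9.77% to -7.14%. MRPS26, a mitochondria-specific protein, was at 208 and 215 CPM in the controls and at 183 and 198 CPM with VIRMA (log2 fold change -0.15 ± 0.03, adjusted p = 0.000296). MRPS21, of bacterial descent, was at 161 and 168 CPM and at 149 and 150 CPM (-0.14 ± 0.03, adjusted p = 0.00038). Their groups lay side by side. MRPS5, at the channel through which messenger RNA enters, was at 97.1 and 92.3 CPM and at 87.5 and 87.8 CPM (-0.11 ± 0.04, adjusted p = 0.0093), and its call was lost without eGFP control replicate 1 (adjusted p = 0.125). With library totals alone these 3 no longer passed, and with upper-quartile factors MRPS21 and MRPS5 did not. The 9 members that did not pass were MRPS9, MRPS14, MRPS17, MRPS18B, MRPS18C, MRPS22, MRPS25, MRPS31 and MRPS35, from -0.13 (MRPS18C) to 0.07 (MRPS31).

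Several symbols do not match the subunit their letter names. MRPS30 and MRPS18A encode proteins of the large subunit, and MRPS36 encodes a protein since placed in the 2-oxoglutarate dehydrogenase complex of the citric acid cycle. MRPS30 was at 71.6 and 69.9 CPM in the controls and at 66.6 and 64.8 CPM with VIRMA (log2 fold change -0.11 ± 0.04, adjusted p = 0.0187). The call was lost without eGFP control replicate 1 (log2 fold change -0.09) or VIRMA-overexpressing replicate 2 (-0.09). It was also lost with library totals alone and with upper-quartile factors. MRPS36 was at 28.2 and 31.1 CPM and at 23.2 and 24.3 CPM (-0.32 ± 0.06, adjusted p = 2.98e-05). The groups of both genes were apart.

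The MRPS18 paralogues are 3 proteins that share 1 bacterial ancestor, with MRPS18B and MRPS18C in the small subunit. Despite this ancestor, MRPS18B was listed with the members specific to mitochondria in the structural classes below, and MRPS18C with those that have bacterial counterparts. MRPS18A was at 24.3 and 21.5 CPM in the controls and at 19.8 and 17.9 CPM with VIRMA (log2 fold change -0.28 ± 0.07, adjusted p = 0.000897). MRPS18C was at 24.2 and 23.2 CPM and at 22.5 and 20.8 CPM (-0.13 ± 0.07, adjusted p = 0.0807, or 0.0369 without VIRMA-overexpressing replicate 1). MRPS18B was at 137 and 135 CPM and at 138 and 131 CPM (-0.02 ± 0.03, adjusted p = 0.632). The groups of the first 2 did not overlap and those of MRPS18B did, and differences among the 3 changes were not tested. RSPH9 on the opposite strand overlaps 47.0% of the exonic bases of MRPS18A, and FAM175A overlaps 40.2% of those of MRPS18C.

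MRPS24 was the 1 member below the filter. It held 96 and 69 counts in the control libraries and 77 and 120 counts with VIRMA, or 0.413 RPKM on average, and its groups overlapped. A readthrough row that joins it to its neighbour URGCP overlaps 23.2% of its exonic bases on the same strand. That row was at 0 to 0.012 CPM. The deposited length of MRPS24 is 2613 bases, beside 667 in the canonical transcript. How reads lying in both rows were counted is not given in the sources used here, so the level of MRPS24 is uncertain. With no filter its log2 fold change was 0.20 (adjusted p = 0.701).

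Levels per length spread widely among members that form 1 particle. The mean over the 4 libraries ran from 0.413 RPKM (MRPS24, uncertain as given above) to 179 RPKM (MRPS26). The median was 23.0, beside a median of 4.88 over all tested genes. The 3 highest were MRPS26, at 184, 191, 163 and 176 RPKM in controls 1 and 2 and VIRMA-overexpressing 1 and 2, MRPL41, at 207, 206, 131 and 141 RPKM, and MRPS34, at 207, 198, 121 and 121 RPKM. MRPL41, a mitochondria-specific protein, and MRPS34 led in the controls, and MRPS26 led in the VIRMA-overexpressing libraries. MRPL41 fell by 34.1% (log2 fold change -0.60 ± 0.03, adjusted p = 7.63e-18), so that the 3 differed in their change while holding similar levels. The deposited length is the union of all annotated exons, which exceeded 3 times the canonical transcript in 16 members and lowers their RPKM.

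The size of the change varied with level and with gene structure. Of the 38 tested members above the median level of 23.1 RPKM, 34 fell with a median of -0.40, and of the other 39, 23 fell with a median of -0.19. The Spearman correlation of level with log2 fold change was -0.32 over the 77 members and -0.30 over all 12205 tested genes, across genes of the same 4 libraries. By exons of the canonical transcript (GENCODE release 44), 18 of 21 members with 1 to 3 exons fell (median -0.40), 19 of 24 with 4 or 5 (median -0.37), 15 of 24 with 6 to 8 (median -0.18) and 5 of 8 with 9 or more (median -0.10). The last class is small. Over the tested coding genes 48.2%, 49.6%, 45.5% and 36.8% fell in the same classes, with medians of -0.14, -0.14, -0.09 and 0.03. The share of coding genes that fell was thus lowest in the class with 9 or more exons, which holds 8 of the members. In each class it was smaller than the share of the members that fell. The rank correlation was 0.47 over the members and 0.16 over 9504 coding genes. Genes are not independent replicates, and none of these relations was tested.

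**Figure D3:**
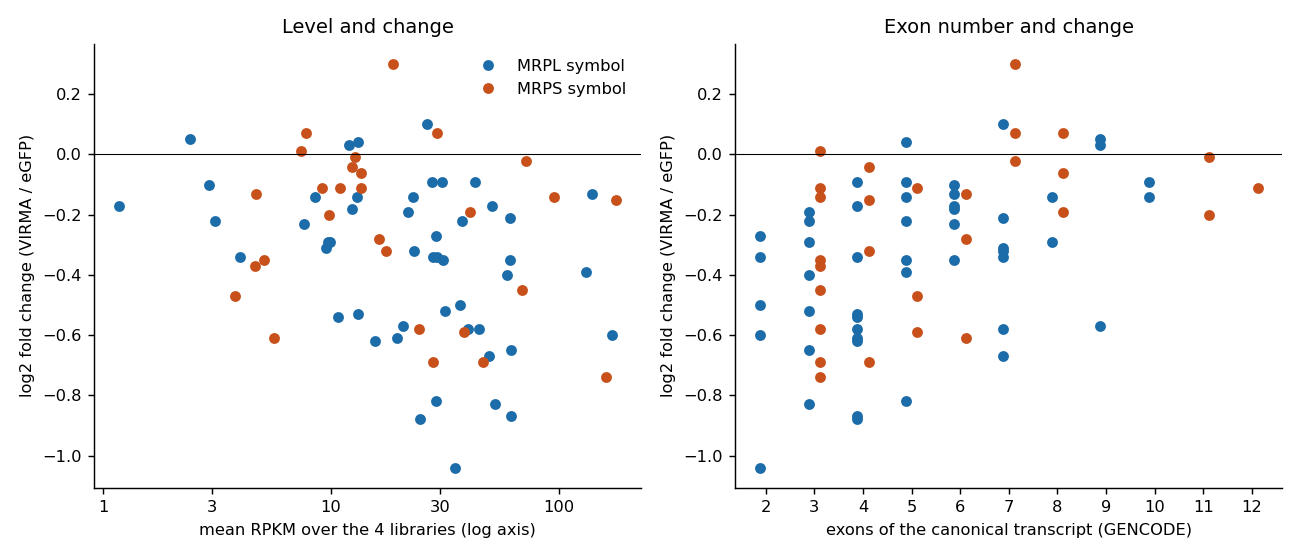
Log2 fold change of the 77 tested members (y axes) against mean RPKM over the 4 libraries (left, log axis) and against the number of exons of the canonical transcript (right), with MRPL symbols in blue and MRPS symbols in orange. Both clouds tilt, with rank correlations of -0.32 and 0.47.

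The 4 structural classes are shown beside related genes of the mitochondrial translation system. Of the 30 large subunit members with bacterial counterparts, 27 fell and 1 rose (median -0.35), and of the 18 that are specific to mitochondria 11 fell and 0 rose (median -0.28). In the small subunit, 10 fell and 1 rose of the 15 tested members with bacterial counterparts (median -0.19), and 5 fell and 0 rose of the 10 specific to mitochondria (median -0.10). No member specific to mitochondria was higher at an unadjusted p below 0.05 in edgeR with TMM or at an adjusted p below 0.05 in DESeq2, but 2 of this kind were called higher in other settings, MRPS35 with library totals alone and with upper-quartile factors, and MRPL52 without eGFP control replicate 2 or VIRMA-overexpressing replicate 1. MRPL58, a relative of release factors that was built into the large subunit, stood outside the classes and fell by 11.3% (log2 fold change -0.17 ± 0.04, adjusted p = 0.00075).

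Among 5 mitoribosomal proteins whose symbols do not begin MRP, 3 fell and 1 rose (median -0.50). CHCHD1, of the small subunit, was at 138 and 144 CPM in the controls and at 74.5 and 80.2 CPM with VIRMA (log2 fold change -0.87 ± 0.04, adjusted p = 1.12e-20), a change as large as that of MRPL18. PTCD3, also of the small subunit, was at 80.3 and 79.0 CPM and at 93.5 and 95.1 CPM (0.24 ± 0.04, adjusted p = 5.57e-07). The ribosome's own proteins thus included 3 that rose, MRPS10, MRPL2 and PTCD3, with the call of MRPL2 lost in the settings given above. The 2 mitochondrial ribosomal RNAs, measured here only through poly-A selection, both rose, MT-RNR1 with a log2 fold change of 0.12 ± 0.03 (adjusted p = 5.94e-05) and MT-RNR2 with 0.47 ± 0.02 (adjusted p = 5.27e-21).

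Genes that build or run the mitochondrial ribosome moved in both directions, as did all tested genes, of which 35.9% fell and 35.1% rose. The shares were 50% and 17.9% in the assembly factors and 41.2% and 41.2% in the translation factors. Of 28 tested assembly factors, 14 fell and 5 rose (median -0.16), from RCC1L (-0.70 ± 0.03, adjusted p = 3.16e-19), which binds the large subunit RNA during assembly, to GTPBP10 (0.56 ± 0.07, adjusted p = 8.18e-09), a GTPase of large subunit maturation. Of 17 translation factors, 7 fell and 7 rose (median -0.01), from MTFMT (-0.54 ± 0.12, adjusted p = 0.000138), which formylates the initiator methionine, to GUF1 (0.47 ± 0.09, adjusted p = 3.83e-05), a relative of the bacterial elongation factor LepA. The elongation factor TUFM, the most abundant of these, was at 558 and 561 CPM in the controls and at 401 and 402 CPM with VIRMA, and was chosen after its values were seen.

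Of the 5 genes for transcription of mitochondrial DNA, 2 fell and 3 did not pass (median -0.05), from the elongation factor TEFM (-0.36 ± 0.16, adjusted p = 0.0479) to the initiation factor TFB2M, which did not pass (0.16 ± 0.09, adjusted p = 0.0988). Of 9 tested regulators of mitochondrial gene expression, 3 fell (33.3%) and 5 rose (55.6%), with a median of 0.13. Over all tested genes 35.9% fell and 35.1% rose. The regulators ran from MYC (-0.40 ± 0.03, adjusted p = 2.95e-13) to GABPB2 (0.77 ± 0.09, adjusted p = 2.63e-09), a subunit of the factor that binds the ETS motif given above. GABPA, its DNA-binding subunit, was at 14.0 and 13.5 CPM in the controls and at 18.1 and 19.2 CPM with VIRMA, and NRF1 at 24.0 and 25.5 CPM and at 40.7 and 41.1 CPM. Both rose (adjusted p = 3.80e-06 and 7.94e-14), while YY1 did not pass (-0.05 ± 0.04, adjusted p = 0.189). With library totals alone the medians of the translation and transcription lists turned to 0.07 and 0.04, and with upper-quartile factors to 0.06 and 0.03, while those of the members and of the other lists kept their sign.

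**Figure D4:**
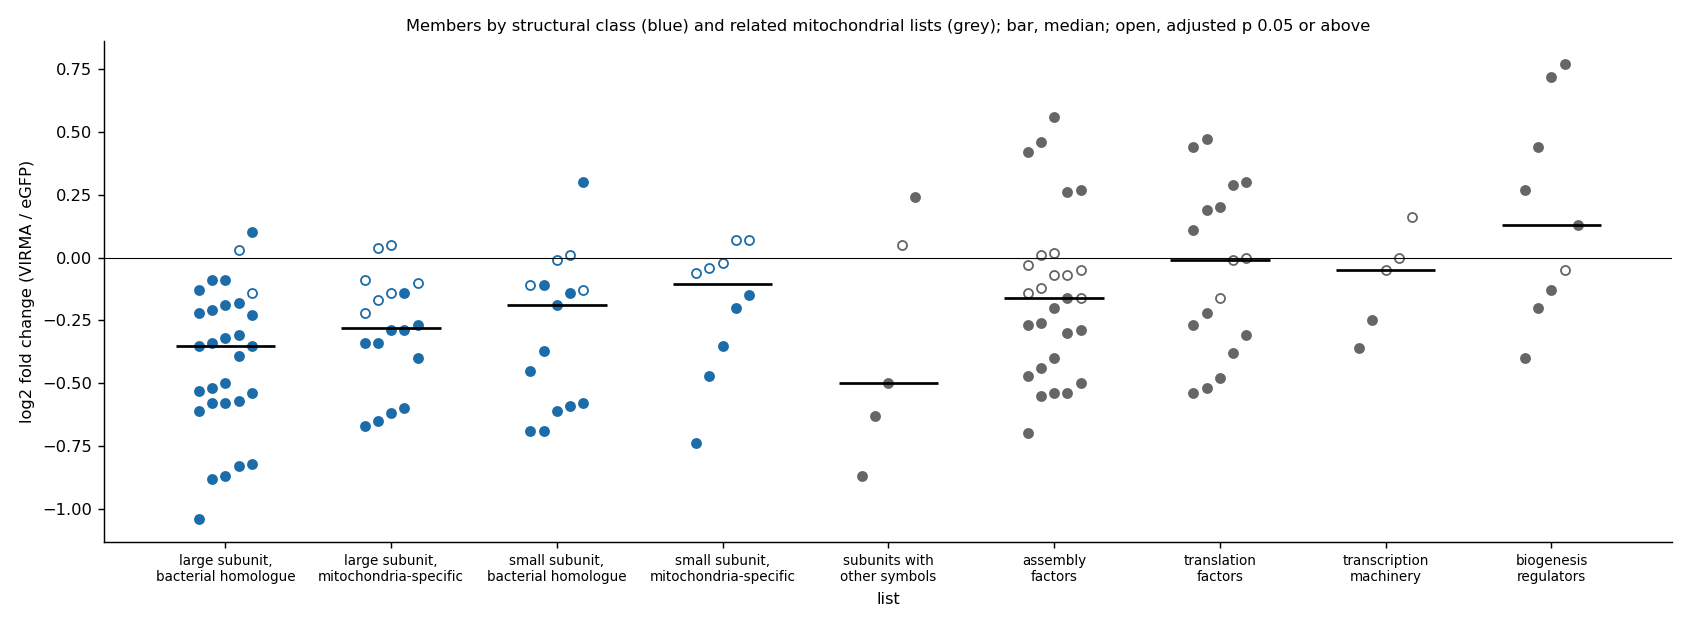
Log2 fold change (y axis) of the tested members in 4 structural classes (blue) and of 5 related mitochondrial lists (grey), with a bar at each median and open circles where the adjusted p was 0.05 or above; MRPS30, MRPS18A, MRPS36 and MRPL58 are not drawn. The medians run from -0.35 for large subunit members with bacterial counterparts to -0.10 for small subunit members specific to mitochondria, and from -0.50 to 0.13 in the related lists.

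Proteins of the cytosolic ribosome and nuclear genes of the respiratory chain were set beside the members. Of 82 tested proteins of the cytosolic ribosome, 69 fell (84.1%) and 1 rose (1.22%), with a median of -0.22, from RPL39L (-0.71, adjusted p = 1.08e-12) to RPL36A, which did not pass (0.17, adjusted p = 0.0941). Of 85 tested nuclear genes of the respiratory complexes and their assembly, 68 fell (80.0%) and 7 rose (8.24%), with a median of -0.31, from NDUFA2 (-0.84, adjusted p = 4.14e-20) to NDUFA4L2 (1.87, adjusted p = 1.39e-13). The lower quartile was -0.54 in the mitochondrial ribosomal proteins, -0.49 in the respiratory genes and -0.31 in the cytosolic ribosomal proteins. The cytosolic set was thus narrower around its median, and the 3 lists were not tested against each other.

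**Figure D5:**
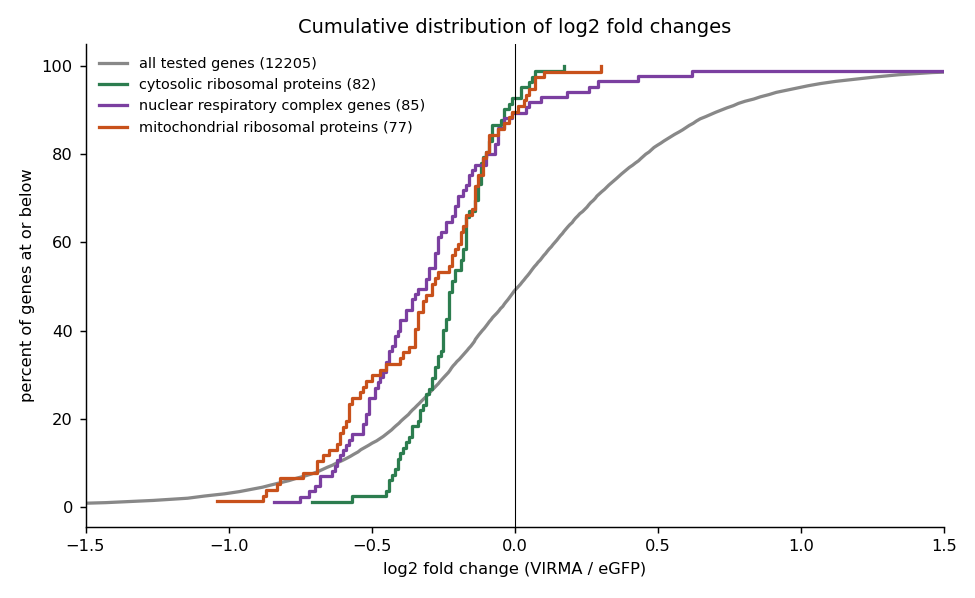
Percent of genes (y axis) at or below each log2 fold change (x axis) for the mitochondrial ribosomal proteins (orange, 77), cytosolic ribosomal proteins (green, 82), nuclear respiratory complex genes (purple, 85) and all 12205 tested genes (grey), drawn between -1.5 and 1.5. The 3 coloured curves cross 50% at -0.29, -0.22 and -0.31, left of the grey curve at 0.01.

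Member genes often share their surroundings with another gene. Within 1000 bases upstream of the start of 22 members RefSeq places the start of a gene on the other strand, and 17 of these neighbours were tested. Of these 17 neighbours, 9 fell and 4 rose, beside 35.9% and 35.1% of all tested genes. The 17 include MRPS11 and MRPL46, each the neighbour of the other, and MRPS11 is among the 9 that fell. Of the 13 members that fell and had a tested neighbour, the neighbour fell in 7 and rose in 4. Whether members and neighbours change together was not tested. MRPS11 and MRPL46 lie head to head on chromosome 15 and are read away from each other, with their starts 320 bases apart. MRPS11 fell as given above, whereas MRPL46 was at 8.27 and 7.65 CPM in the controls and at 6.91 and 7.23 CPM with VIRMA and did not pass (log2 fold change -0.17 ± 0.11, adjusted p = 0.173). MRPL18 lies 210 bases from TCP1, a cytosolic chaperonin subunit, which also fell (-0.66, adjusted p = 2.38e-19), and MRPL37 lies 137 bases from CYB5RL, which rose (0.51, adjusted p = 9.23e-06) while MRPL37 fell (-0.67, adjusted p = 9.08e-19).

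Because the strand setting of the counting is not given in the sources used here, reads of overlapping genes may be shared. Exons of another row overlapped 40 members, in 10 of them over more than 25% of the exonic bases, with MRPL12 the highest at 68.2%. Of the 38 members with no such overlap, 29 fell and 1 rose (median -0.28), and of the 39 tested members with one, 28 fell and 1 rose (median -0.29). The 73 pseudogene rows of 34 members held 187 to 249 counts per library in all, beside 392947 to 500797 counts of the members, and exceeded 5% of the parent's counts only for MRPS31, at 5.89%.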

How the data were processed

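Poly-A RNA of 4 SKBR3 libraries was sequenced as paired ends with a stranded kit. The authors trimmed reads with Trimmomatic 0.39, aligned them with STAR 2.5.2a to hg38 (Ensembl 86) and counted them with featureCounts of Subread. The deposited table holds unnormalised counts for each gene, beside exon coordinates and exonic length. The handling of multi-mapped reads is not given in the sources used here. The submitters' processing notes also list FastQC and DESeq2. Control columns are named in the table, and the other 2 columns were taken as the VIRMA-overexpressing group, checked by VIRMA itself.

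RPKM came from counts, library totals and deposited lengths, and 12205 genes above 1 in at least 2 of 4 libraries were tested with the edgeR 4.0.16 quasi-likelihood test (R 4.3.3, limma 3.58.1, TMM), with Benjamini-Hochberg adjustment over all of them, thresholds of 0.05 and, where stated, 2-fold. RPKM and CPM in the text are TMM-scaled. SE is the estimate over the square root of F. A single gene in 2 against 2 libraries cannot go below p = 0.33 in an exact permutation test, so p-values rest on spread shared across genes. Pseudogenes and hyphenated rows were dropped from the symbol-defined lists, and RPS4Y rows from the cytosolic list. Alternatives were DESeq2 1.42.0, other scalings and filters, a replicate block and leaving out each library.

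Members, lists and named genes were chosen with earlier results of these data known. Named were all members past both thresholds, for MRPL and MRPS the 5 lowest and 5 highest log2 fold changes among called members without overlapping groups, the 3 highest in RPKM, those below the filter, MRPS18A, MRPS18B, MRPS18C, MRPS30 and MRPS36, and the extremes of each related list. Any other gene with values in the text was chosen after its values were seen.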

Additional observations from a re-analysis of the deposited data

How the results depend on the processing

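Under 8 alternatives and when each of the 4 libraries was left out, the count of members that fell ranged from 47 (library totals alone) to 63 (filterByExpr), and 47 of the 57 were called in every setting. The replicate block gave 59 that fell and 2 that rose, with a median of -0.29. Same-numbered libraries were correlated at 0.0755 in their deviations, so with 2 pairs the numbers were not taken to pair them. Library totals alone shifted all genes by 0.083 and upper-quartile factors by 0.072 (log2), and the median of the members became -0.20 and -0.22. It was -0.33 with filterByExpr, -0.32 with no filter, and -0.29 to -0.27 without each library. MRPL36 was not past 2-fold with library totals alone or upper-quartile factors (0 members each), and 0 to 1 members were without each library, 0 being without VIRMA-overexpressing replicate 1. The members that rose numbered 1 in DESeq2, with filterByExpr and with no filter, and 1 to 3 without each library, 1 being without VIRMA-overexpressing replicate 2. MRPS18B changed sign to 0.05 with upper-quartile factors and 0.06 with library totals alone, and ran from -0.06 to 0.02 without each library, none of these past the threshold. The causes of these shifts were not tested beyond the scaling itself. A median over members above 5 RPKM, an alternative chosen after seeing the data, was -0.29.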
